A study of Mus musculus with 10 samples.

Results

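The genes described here encode the subunits of the mitochondrial respiratory chain and ATP synthase that are made from nuclear DNA, with cytochrome c and a few assembly factors. They were chosen by name: a gene symbol that begins with Nduf, Uqcr, Atp5 or Cox4 to Cox8, or is Sdha, Sdhb, Sdhc, Sdhd, Cyc1 or Cycs. This gave 92 of the 18193 genes that the array's annotation names by a single symbol, measured by 184 of 45037 probe sets. Where a gene has several probe sets, the one brightest on average over all arrays stands for it. The 92 members comprise 34 complex I subunits, 4 of complex II, 10 of complex III with cytochrome c, 19 of complex IV, 17 of complex V and 8 assembly factors of complex I (the Ndufaf genes). Ndufa4 and Ndufa4l2, once assigned to complex I, were placed with complex IV. The mean signal of 87 members lay at or above the median of all probe sets, and Ndufb4, Cox7a1, Cox7b2, Cox8b and Ndufa4l2 lay below it.

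Oxidative phosphorylation is carried out in the inner mitochondrial membrane. Complexes I and II pass electrons from NADH and succinate to ubiquinone, complex III passes them on through cytochrome c to complex IV, and the proton gradient that builds up drives complex V, the ATP synthase. Blood stem cells are known to rely largely on glycolysis while quiescent and to engage mitochondrial respiration more as they cycle and differentiate.

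The cells were mouse haematopoietic progenitors transduced with a retrovirus carrying GFP and HOXB4, a homeobox protein known for amplifying stem cells of the blood. The series asks which genes respond when HOXB4 is switched off. HOXB4-ER is a fusion that enters the nucleus while 4-hydroxytamoxifen (TMX) is present, and HOXB4const is the unmodified protein, profiled to show effects of TMX itself. All populations grew for 14 days with cytokines, without serum, in 10 nM TMX. The sort then took cells positive for GFP, Sca1 and ckit that lacked lineage markers (LSK cells), which stayed another 12 h in TMX before they were divided. The 10 Affymetrix arrays form 5 groups of 2 biological replicates. Of HOXB4-ER there are a group kept 1 h in TMX and groups deprived of it for 1 h and for 4 h, and of HOXB4const a group kept 1 h in TMX and a group deprived of it for 1 h. Every group therefore carries a HOXB4 transgene and has been exposed to TMX. Titles number the replicates 1 and 2 in each group, and the sources used here do not say what a number stands for beyond that. Nor do they name the strain and age of the mice, the number of animals pooled or the integration sites, so p-values measure the spread between these samples.

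Values are log2 signals, and differences between groups are differences of log2 means with limma's moderated standard error (SE). Array medians over all probe sets lay between 3.96 and 5.32. The array of HOXB4const without TMX replicate 1 stood apart with the median of 5.32. All 6 LSK marker genes measured were at or above the median level. Among them was Kit, whose signal was 9.38 ± 0.53 (SD, n = 5) over replicate 1 and 10.16 ± 0.53 over replicate 2. At or above that level were also 2 of 4 lineage markers and all 10 monocyte and macrophage markers measured. Being above this level therefore does not show that the cells matched their gate. The markers of monocytes and macrophages differed between the replicate numbers, as given with the results they accompany.

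After 1 h without TMX the oxidative phosphorylation genes of HOXB4-ER cells differed little on median from those kept in TMX. The median difference of the 92 members was -0.01, with 45 higher (57.7% of all probe sets were) and 47 lower without TMX, and 86 differences were smaller than 0.5 on the log2 scale. None of the 92 members passed an adjusted p of 0.05 in limma, where 0% of all probe sets did, and 0 had an unadjusted p under 0.05, where 4.76% of all probe sets did. Adding a mean-variance trend to the fit also gave 0 members at an adjusted p under 0.05. The median over all probe sets was 0.12, so members lay 0.13 below the array-wide shift, but the median over probe sets at or above the median level, where 87 of the members lie, was 0.03. With arrays centred on their median only 5 members were higher, and with quantile normalization 44. The precision is low with 2 arrays a group: the median unadjusted 95% confidence interval of a member reached 1.15 to either side, or 0.77 with the trend. The fit of the group comparisons had no term for the replicate number, so differences between the numbers are part of the spread behind these widths. To pass the adjusted test a change had to exceed its own interval, so these widths are not detection limits.

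The complex medians differed in sign within that narrow range. Of the complex I subunits 27 of 34 were lower after 1 h without TMX, with a median of -0.11, and Ndufa5, an accessory subunit of the hydrophilic arm, had the smallest p among them at -0.49 ± 0.67. All 4 complex II genes were higher, with a median of 0.20 that turned to -0.18 when arrays were centred. Sdhb, the iron-sulfur subunit of succinate dehydrogenase, was 9.70 and 9.88 with TMX and 9.85 and 10.17 without, a difference of 0.22 ± 0.40. The groups overlap for Sdhb. The 3 genes of the c subunit, whose ring turns with the flow of protons through complex V, were each higher: Atp5g1 by 0.34 ± 0.47, Atp5g2 by 0.47 ± 0.49 and Atp5g3 by 0.33 ± 0.43, of which Atp5g1 and Atp5g3 turned to -0.04 and -0.05 when arrays were centred. Arrays with and without TMX did not overlap for these c-subunit genes, yet each interval included 0, and members whose groups did not overlap were no more frequent than elsewhere: 13 of 92 (14.1%) were higher without overlap against 21.1% of all probe sets, and 1 (1.09%), Ndufaf6, was lower against 11%. Cox7c and Cox7a1, small subunits of complex IV, had the largest negative differences at -1.43 ± 1.00 and -1.50 ± 1.28. For Cox7c a single array stood low, HOXB4-ER without TMX 1 h replicate 1 at 3.08, against 5.82 and 6.18 with TMX and 6.07 on the other array without it.

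In HOXB4const cells, where HOXB4 does not depend on TMX, 66 of 92 members were lower after 1 h without TMX and the median was -0.09. The other 26 (28.3%) were higher, against 55.7% of all probe sets, and 10 were with arrays centred. The limma test passed 0 members at an adjusted p under 0.05 (0% of all probe sets) and 0 at an unadjusted p under 0.05 (4.34% of all). Members lower without overlap numbered 20 (21.7%) against 9.17% of all probe sets, and those higher without overlap 6 (6.52%) against 15.8%. Complex I was lower in 28 of 34 genes with a median of -0.13, and all 8 Ndufaf assembly factors were lower with a median of -0.18 (6 of 8 with quantile normalization). Ndufaf3, which acts early in the assembly of complex I, was 7.45 and 7.72 with TMX and 7.23 and 6.51 without, a difference of -0.71 ± 0.45. Ndufaf6, also needed early in complex I assembly, differed by -0.73 ± 0.53, and Atp5k, the e subunit of ATP synthase, by -0.62 ± 0.44. The arrays did not overlap for any of these 3 genes, but all 3 adjusted p-values in limma were 1.00. Higher without TMX were the isoforms Cox6b2 (1.09 ± 0.60), known from testis, and Cox6a2 (1.32 ± 0.96), known from heart and skeletal muscle; on the array that stands apart, HOXB4const without TMX replicate 1, these read 5.77 and 6.62. Without that array the members' median was 0.09 in place of -0.09. It was 0.10 without HOXB4const with TMX replicate 2, -0.27 without HOXB4const with TMX replicate 1 and -0.33 without HOXB4const without TMX replicate 2, so its sign depended on which arrays were used.

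The difference between the constructs in their response to 1 h without TMX was tested directly as the HOXB4-ER difference minus the HOXB4const difference. It was positive for 60 of 92 members (50.9% of all probe sets), with a median of 0.12 against 0.02 over all probe sets, and limma passed 0 members at an adjusted p under 0.05 (0% of all probe sets) and 0 at an unadjusted p under 0.05 (3.77% of all). Complex II had the highest median of the complexes, 0.34, with 4 of 4 genes positive and an interval for Sdhb of -0.87 to 1.80. The 8 assembly factors were all positive with a median of 0.14, though 6 were with arrays centred. The members' median was -0.11 without the array that stands apart and -0.12 without HOXB4const with TMX replicate 2. Ndufaf3 differed by 0.96 ± 0.64 and Uqcr11, a small subunit of complex III, by 0.68 ± 0.61. Cox7a1 gave the largest difference, -3.04 ± 1.80, from a signal below the median of all probe sets.

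After 4 h without TMX the HOXB4-ER cells were compared with the HOXB4-ER arrays with TMX for 1 h, the same arrays that served for the 1 h comparison, so both differences share their controls. No group was kept 4 h in TMX, so loss of TMX and time in culture cannot be told apart in the 4 h difference. The median of the members was 0.03, with 52 of 92 higher (48.3% of all probe sets), and limma passed 0 members at an adjusted p under 0.05 (0% of all probe sets) and 0 at an unadjusted p under 0.05 (3.35% of all). Arrays without overlap were higher for 6 members (6.52%, against 14.8% of all probe sets) and lower for 13 (14.1%, against 15.2%). Side by side, the complex I medians were -0.11 after 1 h and 0.05 after 4 h, those of complex II 0.20 and -0.18, and those of complex V 0.04 and 0.06. Atp5g1 was 9.69 and 9.81 with TMX, 10.13 and 10.06 after 1 h and 9.24 and 9.48 after 4 h without. As deposited, Atp5g1 was thus above the arrays with TMX after 1 h and below them after 4 h, by 0.34 ± 0.47 and -0.40 ± 0.47, neither past the test. Centring moved the members' median from -0.01 to -0.40 after 1 h and from 0.03 to 0.06 after 4 h. The 1 h values of complex II and Atp5g1 turned negative with it, so their change of sign between 1 h and 4 h depended on the scaling. Ndufaf4, a complex I assembly factor, was 8.09 and 8.99 with TMX and 8.08 and 7.69 after 4 h without, a difference of -0.65 ± 0.47.

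The 4 h and 1 h arrays without TMX were also compared with each other, a comparison of times without the inducer that includes any effect of time in culture. The median was 0.03 against -0.17 over all probe sets, with 50 of 92 higher at 4 h (41.7% of all probe sets), 0 members at an adjusted p under 0.05 in limma (0% of all) and 0 at an unadjusted p under 0.05 (5.68% of all). Complex I was higher at 4 h in 26 of 34 genes with a median of 0.19, and complex II was lower in 3 of 4 with a median of -0.41, which was 0.01 with arrays centred, where 79 of 92 members were higher. Cox8a, the common isoform of a small complex IV subunit, did not pass at -0.84 ± 0.49 (limma adjusted p = 0.947), nor did Atp5g1 at -0.74 ± 0.47 and Atp5g2 at -0.70 ± 0.49. Members lower without overlap numbered 16 (17.4%) against 23.4% of all probe sets, and 4 (4.35%) were higher against 12.8%.

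With TMX present, HOXB4-ER cells were compared with HOXB4const cells. The median difference of the members was 0.00 and 44 of 92 were higher in HOXB4-ER (39% of all probe sets), with 0 members at an adjusted p under 0.05 in limma (0% of all probe sets) and 0 at an unadjusted p under 0.05 (4.38% of all). Members without overlap numbered 8 (8.7%) in each direction, against 9.28% of all probe sets higher and 22.5% lower. Sdha, the flavoprotein that oxidises succinate, differed by -0.09 with an interval of -1.28 to 1.09, Atp5a1, the alpha subunit of the catalytic head of ATP synthase, by -0.09 (-1.09 to 0.91), and Cycs, cytochrome c, by 0.74 (-1.25 to 2.72). These intervals do not show that the constructs had equal levels. With arrays centred 88 of 92 members were higher in HOXB4-ER, and with quantile normalization 33.

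**Figure D1:**
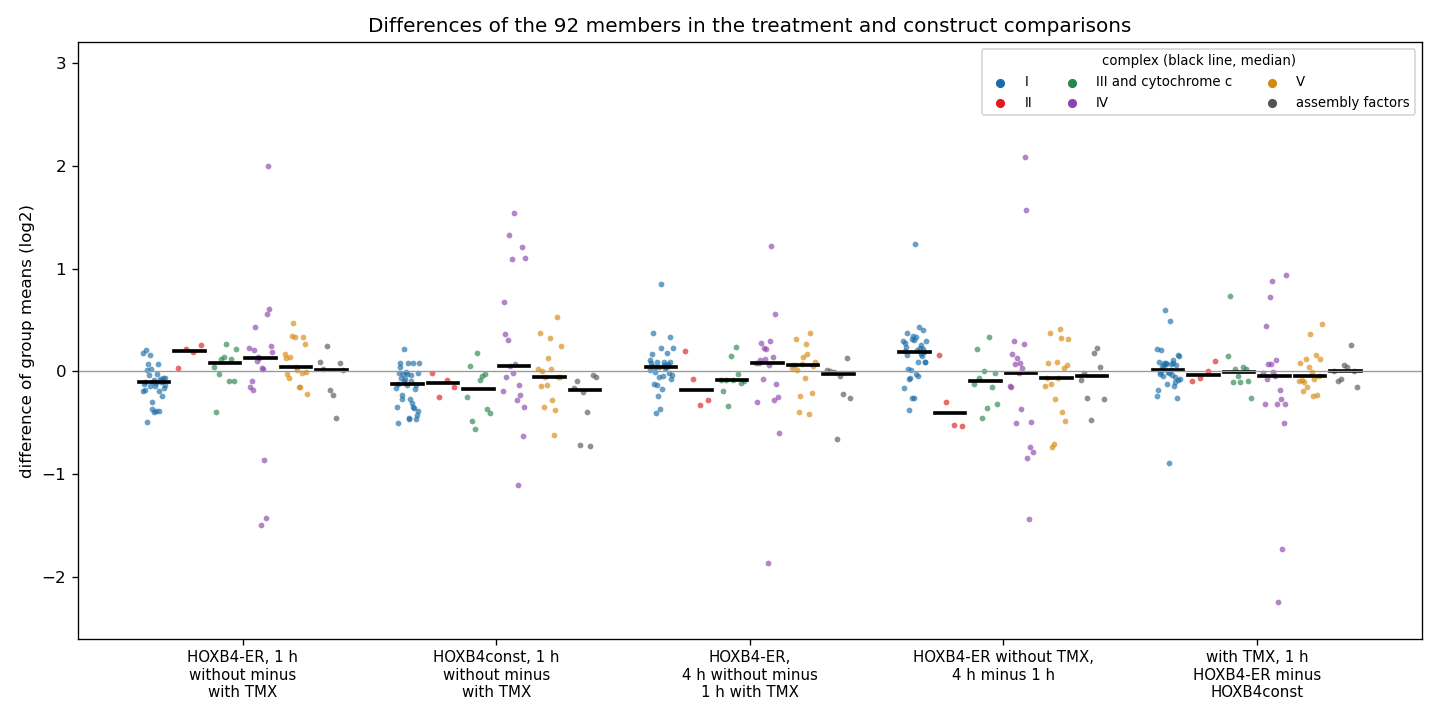
Differences of group means (vertical axis, log2) of the 92 members in 5 comparisons (horizontal axis), coloured by complex, each point 1 gene, with the median of each complex as a black line. As deposited, the complex medians lie between -0.41 (complex II, 4 h minus 1 h) and 0.20. Complex IV genes such as Cox7b2, Cox8b and Cox7a1 lie farthest from 0.

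These small medians were compared with that of all probe sets, since the scaling of the arrays shifts both. As deposited, the members' median minus that of all probe sets was -0.13 for HOXB4-ER and -0.18 for HOXB4const after 1 h without TMX, 0.06 after 4 h, 0.20 for 4 h against 1 h and 0.16 between the constructs. With quantile normalization the same values were -0.02, -0.06, 0.00, 0.01 and -0.08, so that the difference between the constructs changed sign. The offsets as deposited are also smaller against the brighter probe sets alone, whose medians were 0.03, -0.04, -0.01, -0.04 and -0.05 in the same order, against 0.12, 0.09, -0.02, -0.17 and -0.17 for all. Within replicate number 1 and within replicate number 2, the member medians were -0.04 and 0.04 for HOXB4-ER after 1 h, -0.04 and 0.06 after 4 h, and -0.16 and -0.02 for HOXB4const.

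As deposited, the members' median differed more between the replicate numbers (0.36) than by TMX, time or construct (-0.09 to 0.12). With quantile normalization, the median minus that of all probe sets was 0.11 between replicate numbers. It was also 0.11 for the difference between the constructs in their response. Across the 5 groups, 72 of 92 members (78.3%) were higher on the replicate 2 than on the replicate 1 array, against 41.3% of all probe sets, with a median difference of 0.36 against -0.15 over all probe sets. All 5 replicate 2 values lay above all 5 replicate 1 values for 31 members (33.7%, against 2.74% of all probe sets and 5.36% of those at or above the median level), and for 0 members below them (3.76% of all probe sets). Higher in 5 of 5 groups were 40 members (43.5%), against 6.72% of all probe sets, and 2 were lower in 5 of 5, against 11%. The median deviation of the members from their own means was -0.15 ± 0.09 (SD, n = 5) over replicate 1 and 0.17 ± 0.05 over replicate 2 arrays, with no overlap. With arrays centred 84 members were higher on replicate 2 and with quantile normalization 62, and 68 of 92 kept their sign under all 3 scalings. Genes named below whose sign did not hold are Ndufs3, Sdhb, Uqcrc1, Cyc1, Cox4i1, Cox6b2, Cox7a1, Cox8a, Atp5a1, Atp5g1 and Atp5g2.

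The limma fit with group and replicate number as terms passed 0 members at an adjusted p under 0.05 (0% of all probe sets), with Ndufa5 lowest at an adjusted p of 0.224. It counts the 5 arrays of a number as independent, which the labels do not state. The p-values, SEs, intervals and SDs given for the replicate numbers therefore describe the spread among these arrays only. At an unadjusted p under 0.05 there were 17 members, all higher on replicate 2, against 13.7% of all probe sets in either direction and 3.13% higher. A fit on probe sets at or above the median level passed 1 member, Ndufa5, against 0.404% of those probe sets called higher. With a mean-variance trend, which lets bright probe sets have their own smaller spread, 17 members (18.5%) passed an adjusted p of 0.05, all higher on replicate 2, against 6.06% of all probe sets called and 1.93% called higher. The passing genes were Ndufa5, Ndufs7, Ndufab1, Ndufa3, Ndufa12, Ndufs1, Ndufc1, Ndufb3, Ndufb10 and Ndufb11 of complex I, Uqcrc2 of complex III, Cox5b, Cox6a1 and Cox6b1 of complex IV, Atp5d and Atp5j of complex V, and the assembly factor Ndufaf2. Without the array that stands apart 9 members passed with the trend, and leaving out any 1 of the 10 arrays gave 7 to 11, of which at most 1 was lower on replicate 2. Arrays centred on their median gave 4 and quantile normalization 6, of which 1 was lower, and fitting the brighter probe sets alone gave 22, of which 1 was lower, while all 17 genes kept their direction under centring and quantile normalization. The count of members higher without overlap was 31 to 38 with any 1 array left out, 31 without the array that stands apart, and 18 with either scaling.

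**Figure D2:**
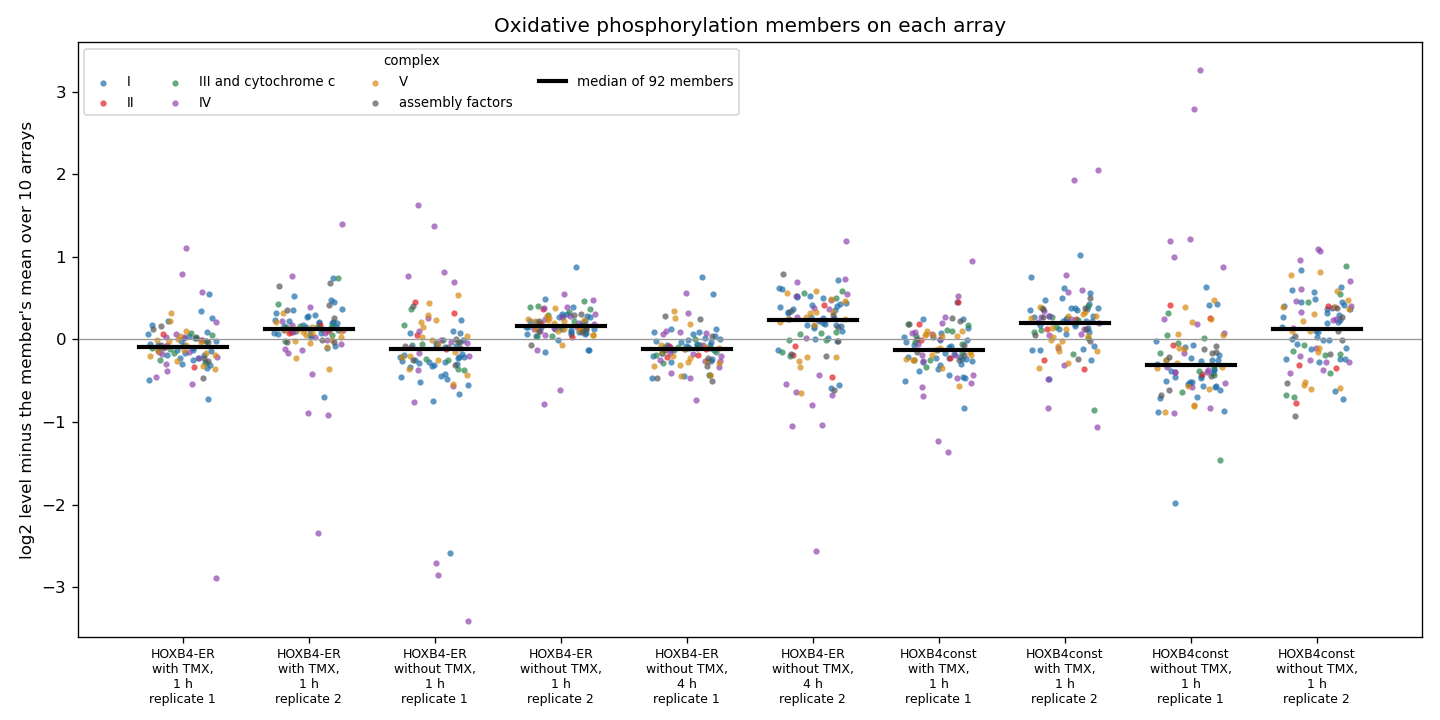
Deviation of each member from its own mean over the 10 arrays (vertical axis, log2) on each array (horizontal axis), coloured by complex, each point 1 gene, with the median of the 92 members as a black line. In every group the replicate 2 median lies above the replicate 1 median, and replicate 1 of HOXB4const without TMX is lowest at -0.31.

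In complex I, the entry point of electrons from NADH, 32 of 34 subunits were higher on replicate 2 with a median of 0.42, and 10 passed with the trend. In the order HOXB4-ER with TMX, without TMX for 1 h and for 4 h, HOXB4const with and without TMX, Ndufa5 measured 9.14, 8.83, 9.24, 9.04 and 8.92 on the replicate 1 arrays. On the replicate 2 arrays it measured 10.24, 9.56, 9.90, 9.92 and 10.13 in the same order. Each replicate 2 value was above every replicate 1 value, whatever the construct or treatment, and the difference was 0.92 ± 0.22 (95% interval 0.37 to 1.47; limma with trend, adjusted p = 0.0016). Ndufs7, a core subunit that carries the iron-sulfur cluster next to the quinone site, read 9.55, 9.59, 9.84, 9.53 and 9.75 on replicate 1 and 10.27, 10.10, 10.66, 10.79 and 10.31 on replicate 2 in that order. Its replicate numbers did not overlap and differed by 0.78 ± 0.23 (limma with trend, adjusted p = 0.00598).

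Ndufab1, the mitochondrial acyl carrier protein, had 10.22, 10.20, 10.07, 10.20 and 10.08 on replicate 1 and 10.97, 10.70, 10.85, 10.86 and 10.79 on replicate 2 arrays, again without overlap (difference 0.68 ± 0.21; limma with trend, adjusted p = 0.00799). The largest core subunit, Ndufs1, differed by 0.62 ± 0.22, and the accessory subunits Ndufa3 and Ndufa12 by 0.91 ± 0.28 and 0.70 ± 0.24; all 3 were free of overlap. Ndufv1, the core subunit that binds NADH, did not follow, with 0.12 ± 0.24 and a higher replicate 2 value in 2 of 5 groups, and Ndufs3, another core subunit, differed by 0.11 ± 0.22. Ndufa8, an accessory subunit of the intermembrane space, ran the other way: it measured 10.08, 9.83, 9.75, 10.18 and 10.15 on replicate 1 and 9.63, 9.82, 9.15, 9.62 and 9.11 on replicate 2. Replicate 2 was lower in 5 of 5 groups, though barely in HOXB4-ER without TMX for 1 h, and the difference of -0.53 ± 0.25 did not pass (limma with trend, adjusted p = 0.0616). Ndufb1 was the only other complex I member with a negative difference, -0.52 ± 0.31.

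Among the 8 assembly factors, which help build complex I but are not part of it, 6 were higher on replicate 2 with a median of 0.26. Ndufaf2, a paralogue of Ndufa12, read 7.97 to 8.19 on replicate 1 and 8.73 to 8.85 on replicate 2 arrays, which did not overlap, and differed by 0.71 ± 0.21 (limma with trend, adjusted p = 0.0095). Ndufaf5 and Ndufaf8 had no overlap either, at 0.48 ± 0.21 and 0.46 ± 0.22, and did not pass.

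Complex II, the only complex made entirely from nuclear genes and shared with the citric acid cycle, did not move as a unit. Sdha was higher on replicate 2 in 5 of 5 groups, at 10.62, 10.83, 10.77, 10.73 and 10.54 against 11.13, 10.99, 11.37, 11.20 and 11.36, a difference of 0.51 ± 0.22 (limma with trend, adjusted p = 0.0531). Its arrays did not overlap by replicate number. Sdhb differed by 0.08 ± 0.22, and the membrane anchors Sdhc and Sdhd by -0.37 ± 0.25 and -0.36 ± 0.28, with replicate 2 higher in 1 and 2 of 5 groups. The next brightest probe set gave 0.81 for Sdha, -0.14 for Sdhc and 0.41 for Sdhd, so the direction of Sdhd depended on the probe set. The median of the 4 genes, -0.14, turned to 0.18 when arrays were centred and was -0.26 with quantile normalization.

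For complex III and cytochrome c all 10 differences were above 0, with a median of 0.17, but most were small. Uqcrc2, a core protein, measured 10.59, 10.52, 10.66, 10.51 and 10.12 on replicate 1 and 10.91, 10.80, 11.32, 10.91 and 11.21 on replicate 2. The replicate numbers did not overlap and differed by 0.55 ± 0.24 (limma with trend, adjusted p = 0.0484). Uqcrc1, its partner core protein, differed by 0.00 ± 0.23, Cyc1, cytochrome c1, by 0.08 ± 0.22, and Uqcrfs1, the Rieske iron-sulfur protein, by 0.27 ± 0.22. Cycs was higher on replicate 2 in 4 of 5 groups at 0.70 ± 0.49, and HOXB4const with TMX went the other way, from 11.68 to 10.65. With quantile normalization 5 of 10 were higher and the complex III median was 0.05, next to 0.07 for all probe sets.

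The members of complex IV, cytochrome c oxidase, did not all move in 1 direction. Of 19 members 9 were higher on replicate 2 and the median was -0.05, which turned to 0.27 with centring and 0.12 with quantile normalization. Taken by array, their median deviation from their own means was -0.14 ± 0.06 (SD, n = 5) on replicate 1. On replicate 2 it was 0.18 ± 0.09, without overlap and higher in 5 of 5 groups. The lower members were the bright Cox4i1, Ndufa4 and Cox8a and the dimmer Cox4i2, Cox6a2, Cox6b2, Cox7a1, Cox8b, Cox8c and Ndufa4l2. Cox6b1, the common isoform of the subunit that joins the dimer, read 11.96, 11.97, 11.97, 11.73 and 11.64 on replicate 1 and 12.28, 12.47, 12.72, 12.37 and 12.57 on replicate 2 arrays. These did not overlap, with a difference of 0.63 ± 0.22 (limma with trend, adjusted p = 0.0253), while its testis isoform Cox6b2 differed by -0.08 ± 0.39. Cox6a1, the common isoform, differed by 0.70 ± 0.27 and passed with the trend, and its muscle isoform Cox6a2 differed by -1.09 ± 0.47 and did not. Cox7a2 differed by 0.40 ± 0.22 and its muscle isoform Cox7a1 by -0.31 ± 0.87, and Cox8a, Cox8b and Cox8c all had negative differences, of -0.15, -0.57 and -0.42. Another probe set of Cox8c gave 0.14. The tissue isoforms were dim, with mean signals of 5.40 for Cox6a2, 4.90 for Cox6b2, 3.28 for Cox7a1 and 1.86 for Cox8b. The median of all probe sets was 4.05, and Cox6a1 stood at 12.25. A part of signal level in these contrasts was not tested. Cox5b passed with the trend at 0.66 ± 0.25, and Cox5a, with a like value of 0.63 ± 0.36, did not.

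Cox4i1, the common form of the largest nuclear subunit of complex IV, was nearly flat. It measured 11.66, 11.85, 11.69, 11.67 and 11.43 on replicate 1 and 11.47, 11.73, 11.62, 11.49 and 11.35 on replicate 2, lower on replicate 2 in 5 of 5 groups by a mean difference of -0.13 ± 0.21. That sign turned to 0.20 when arrays were centred. The dim Cox7b2, a testis isoform, had the largest difference of any member, 2.21 ± 0.64, with values from -0.72 to 4.74 and overlapping replicate numbers.

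Complex V was higher on replicate 2 in 13 of 17 genes with a median of 0.28. Atp5j, the coupling factor F6 of the stalk, read 10.69, 10.68, 10.57, 10.65 and 10.55 on replicate 1 and 11.10, 11.14, 11.11, 11.15 and 11.29 on replicate 2 arrays. Its levels within a replicate number were close and the numbers did not overlap, with a difference of 0.53 ± 0.21 (limma with trend, adjusted p = 0.0338). Atp5d, the delta subunit of the rotor, passed with the trend at 0.55 ± 0.21, and the gamma subunit Atp5c1 was without overlap at 0.40 ± 0.21 and did not pass. The chosen probe sets of the catalytic subunits moved less: Atp5b, the beta subunit, differed by 0.23 ± 0.22 and Atp5a1 by 0.02 ± 0.24. Other probe sets of Atp5a1 gave 0.47, at a mean signal of 11.2, and 0.81, at 5.4, so the small value for Atp5a1 holds for the chosen probe set only. The c-subunit genes Atp5g1 and Atp5g2 differed by -0.18 ± 0.27 and -0.21 ± 0.28, while Atp5g3 differed by 0.24 ± 0.23. With quantile normalization the complex V median was 0.06, next to 0.07 for all probe sets, whereas complex I kept 0.23.

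**Figure D3:**
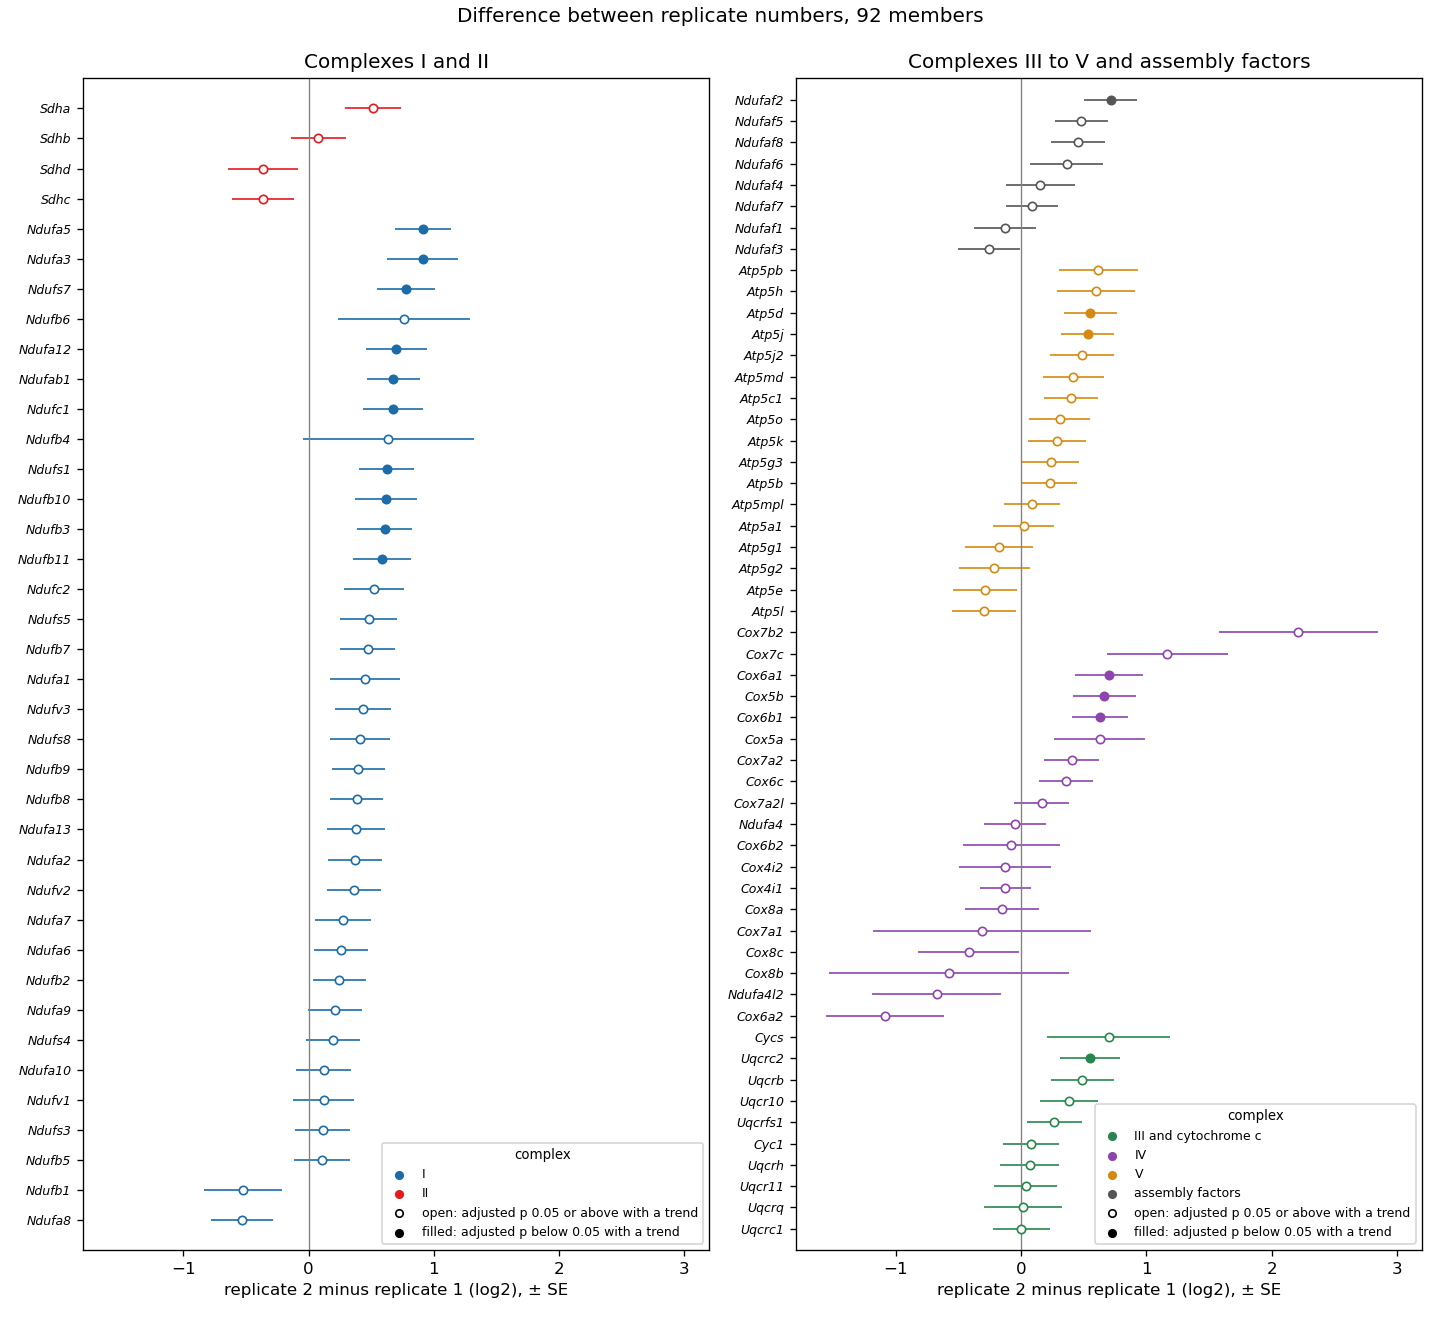
Replicate 2 minus replicate 1 (horizontal axis, log2, with limma's SE) for each of the 92 members, grouped and coloured by complex. Filled points are the 17 members that passed an adjusted p of 0.05 with a mean-variance trend, all of them right of 0, and 10 of them belong to complex I.

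**Figure D4:**
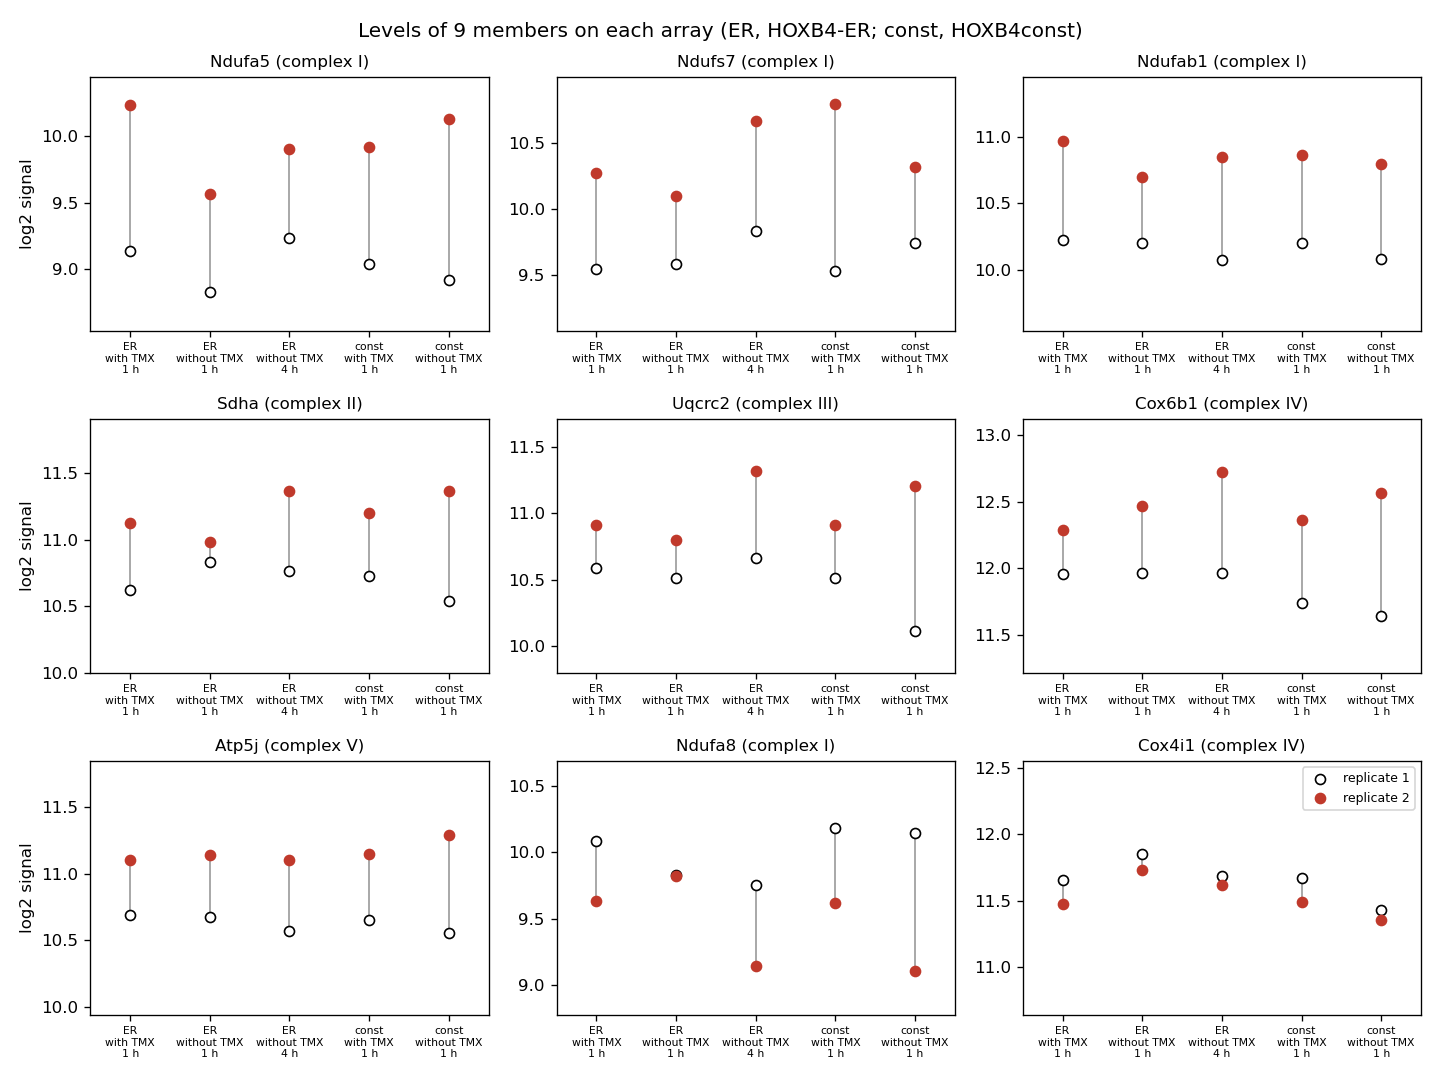
Log2 signal (vertical axis) of 9 members on each array, by group (horizontal axis), with replicate 1 open and replicate 2 filled and a line joining the arrays of a group. Replicate 2 is higher in all 5 groups for 7 of the 9 genes, and lower in all 5 for Ndufa8 and Cox4i1.

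Each group showed the difference. The median of the 92 members, replicate 2 minus replicate 1, was 0.22 for HOXB4-ER with TMX, 0.34 and 0.32 for HOXB4-ER without TMX after 1 h and 4 h, 0.28 for HOXB4const with TMX and 0.46 for HOXB4const without TMX. Between 62 and 74 of 92 members were higher in a group. Complex I medians ran from 0.29 to 0.59 over the groups, and those of complex II from -0.43 to 0.15.

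Other probe sets of the same genes mostly gave the same direction. Of 162 member probe sets at or above the median level, 130 were higher on replicate 2. Among 48 genes with more than 1 such probe set, all of them were higher for 33 genes, all were lower for 2 and they disagreed for 13, which include Atp5d and Ndufb11 among those that passed with the trend. Of the chosen probe sets 20 carry identifiers that end in _s_at or _x_at, which may read several related transcripts, as for Ndufab1, Ndufa3, Ndufa12, Cox5b and Atp5d.

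Promoters are shown for 3 genes higher on replicate 2 and for Ndufa8, which was lower, because factors that bind such sites are known to drive respiratory genes. RefSeq (GRCm38.p6) gave a window from 250 bases before to 50 bases after the start for 75 of the 92 members, 80 windows in all. Searched on both strands, the NRF1 motif (GCGCA, any base, then GCGC) was in 22.5% of member windows against 4.60% of all 32851 windows, the YY1 motif AAGATGGC in 12.5% against 2.75%, and the ETS motif CCGGAAG, to which GABP binds, in 23.8% against 8.86%. The homeodomain core TAATTA was in 0 of 80 windows, against 5.29% of all. The windows of 4 genes held both the NRF1 and ETS motifs, those of 2 genes both YY1 and ETS, and of 0 genes both NRF1 and YY1. Capitals mark the match: YY1 in Ndufs7 (chr10:80249199-80249498, plus strand), NRF1, present at 2 places, in Cox6a1 (chr5:115348909-115349208, minus strand), ETS in Cox6b1 (chr7:30626065-30626364, minus strand) and NRF1 in Ndufa8 (chr2:36049289-36049588, minus strand). In Cox6b1 and Ndufa8 the motif reads on the strand opposite to the one printed, so the capitals show its reverse complement.
Ndufs7: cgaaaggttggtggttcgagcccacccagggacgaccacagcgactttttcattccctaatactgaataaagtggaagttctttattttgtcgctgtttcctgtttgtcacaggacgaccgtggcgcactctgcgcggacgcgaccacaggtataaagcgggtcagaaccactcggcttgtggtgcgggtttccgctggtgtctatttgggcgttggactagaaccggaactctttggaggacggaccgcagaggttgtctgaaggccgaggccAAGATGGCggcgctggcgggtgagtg
Cox6a1: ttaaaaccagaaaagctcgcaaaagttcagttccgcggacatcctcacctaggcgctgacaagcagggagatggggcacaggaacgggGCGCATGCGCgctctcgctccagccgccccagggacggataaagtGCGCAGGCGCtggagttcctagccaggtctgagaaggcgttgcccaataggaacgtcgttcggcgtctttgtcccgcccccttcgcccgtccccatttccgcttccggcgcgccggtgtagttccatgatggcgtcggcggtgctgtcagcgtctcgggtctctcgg
Cox6b1: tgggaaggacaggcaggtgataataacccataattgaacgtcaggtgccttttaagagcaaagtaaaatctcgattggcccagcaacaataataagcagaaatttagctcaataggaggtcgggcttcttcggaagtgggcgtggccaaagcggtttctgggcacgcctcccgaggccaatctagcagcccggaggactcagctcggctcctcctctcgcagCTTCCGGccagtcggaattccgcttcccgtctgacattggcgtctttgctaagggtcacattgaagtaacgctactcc
Ndufa8: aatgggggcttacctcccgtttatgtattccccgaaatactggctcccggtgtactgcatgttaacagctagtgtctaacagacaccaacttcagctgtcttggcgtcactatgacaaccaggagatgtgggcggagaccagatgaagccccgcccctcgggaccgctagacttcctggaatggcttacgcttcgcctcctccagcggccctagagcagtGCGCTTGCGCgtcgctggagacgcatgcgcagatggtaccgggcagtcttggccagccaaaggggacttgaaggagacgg
The YY1 motif in Ndufs7 lies just after the start, and the NRF1 motif occurs in the promoter of a gene higher on replicate 2 and of one lower on it. By motif, the members' median difference between replicate numbers was 0.51 for the 10 genes with YY1, 10 of them higher, against 0.31 for the 65 without it, 51 of them higher. It was 0.31 for the 17 with NRF1 (14 higher) against 0.38 for the 58 without (47 higher), and 0.28 for the 19 with ETS (14 higher) against 0.38 for the 56 without (47 higher). These are descriptions of letters in a window and not of binding.

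Other mitochondrial genes differed between the replicate numbers in the same direction as the members. In lists of related genes, replicate 2 was higher for 16 of 20 genes of the citric acid cycle and pyruvate dehydrogenase (median 0.39), 18 of 21 carriers and import factors (0.37), 58 of 76 mitochondrial ribosomal proteins (0.28), 17 of 19 regulators of mitochondrial biogenesis (0.30) and 27 of 39 assembly factors outside the rule (0.18). Limma with the trend called 3, 2, 16, 1 and 7 of these genes higher and 0, 0, 1, 0 and 0 lower. Of all probe sets 41.3% were higher on replicate 2 and 1.93% were called higher with the trend, or 3.85% of those at or above the median level. Citrate synthase, Cs, was 10.60 ± 0.14 on replicate 1 and 11.32 ± 0.27 on replicate 2 (SD, n = 5), and Timm44, of the import motor, 8.84 ± 0.11 and 9.67 ± 0.12; both passed with the trend and neither without it. Glycolysis genes were higher as well, 14 of 17 with a median of 0.26, among them Ldha at 11.90 ± 0.14 and 12.49 ± 0.20. These list medians were above 0 under both other scalings, but so was the median of all probe sets. With arrays centred the lists had 0.50 to 0.71, against 0.17 for all probe sets. With quantile normalization they had 0.13 (carriers and import) to 0.31, against 0.07. The only subunit gene of mitochondrial DNA measured, ND5, which belongs to complex I, had -0.49 and was lower with both other scalings too.

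Other properties of the arrays moved with the replicate numbers. All 10 monocyte and macrophage markers measured were lower on replicate 2, with a median of -2.67, and limma with the trend called 9 of 10 lower. Their summed linear signal was 11901 to 19359 on replicate 1 and 1909 to 3695 on replicate 2 arrays; Lyz2, lysozyme, was 12.53 ± 0.35 and 9.37 ± 0.76 (SD, n = 5). The summed signal of the LSK markers was 3872 to 5237 and 3843 to 6042, with Meis1 higher by 0.90 ± 0.27 and Flt3 at -1.16 ± 0.31. Of 8 mast cell and basophil markers 5 were lower, with a median of -0.85, and the medians of 4 lineage markers, 5 erythroid and 6 megakaryocyte markers were -0.24, 0.27 and -0.15. The difference between the 3′ and 5′ control probe sets of Gapdh, a measure of RNA integrity and of the length of the amplified product, was 1.10 ± 0.26 on replicate 1 and 2.72 ± 1.08 on replicate 2, without overlap, and that of Actb was 1.80 ± 0.30 and 2.96 ± 0.63. The part of these in the members' difference was not tested. In RNA from a mixed sample, fewer cells of a type and less RNA per cell cannot be told apart.

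**Figure D5:**
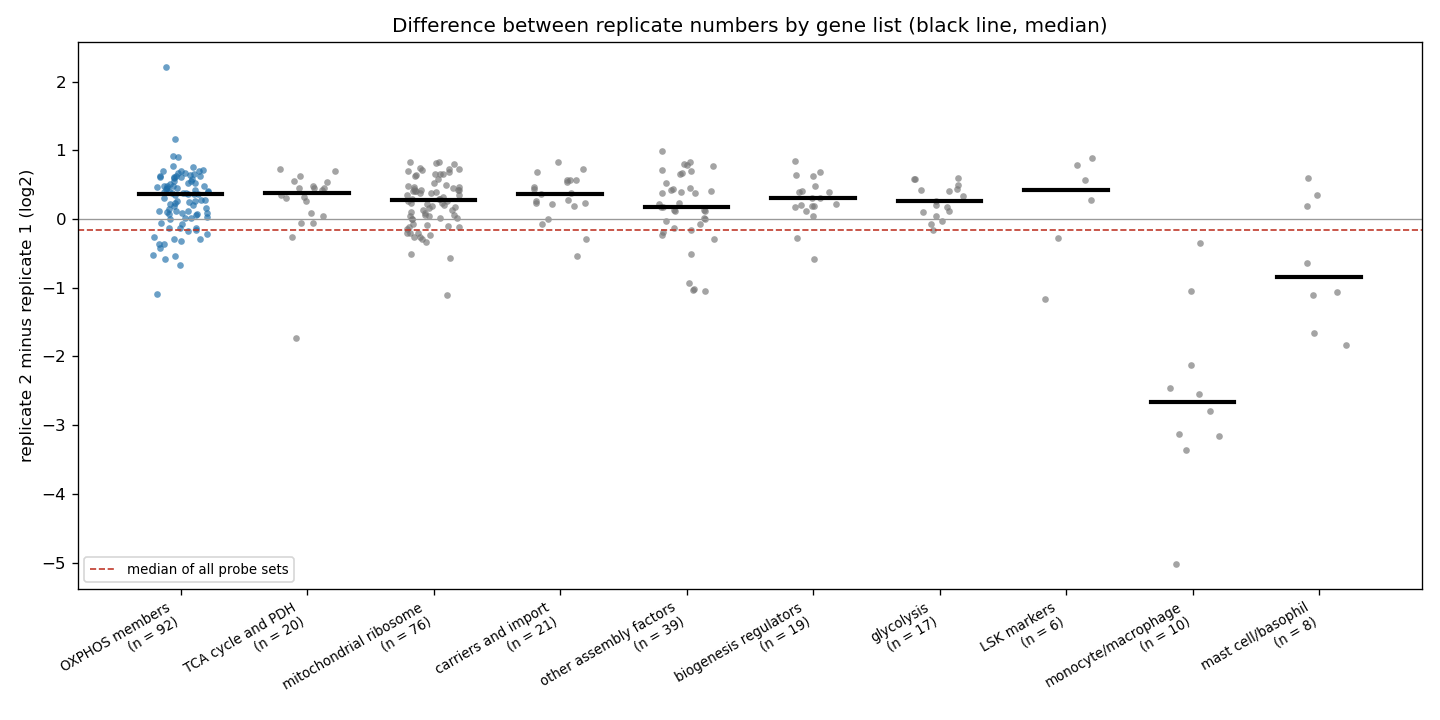
Replicate 2 minus replicate 1 (vertical axis, log2) for the genes of each list (horizontal axis), each point 1 gene, with list medians as black lines and the median of all probe sets dashed. The members, the other mitochondrial lists and glycolysis have medians between 0.18 and 0.39, and the monocyte and macrophage markers have a median of -2.67.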

How the data were processed

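Per the labels, total RNA from sorted cells (0.7 to 1 µg) was amplified linearly from an oligo-dT T7 primer and hybridised to Affymetrix mouse arrays. Per the submitters' processing notes GCOS and RMA were used, without a role for either. The deposited values are log2 signals whose linear mean, trimmed by 2% at each end, is 100 on every array, and they were used as they are. Array number limits the precision.

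Group means over all 10 arrays were fitted to 45037 probe sets with limma 3.58.1 (R 4.3.3), with Benjamini-Hochberg adjustment at 0.05. For the replicate numbers, the number was added as a term. The code was tested on simulated data. There the limma test without a trend recovered 0% of changes of 1 or 2 log2 units at an adjusted p under 0.05. This held for the HOXB4-ER 1 h comparison and for the replicate numbers. Of changes of 4 log2 units it recovered 55% and 82.5%. The simulated spread was that within groups, which includes the differences between replicate numbers. The fit of the replicate numbers takes these out of its spread, so for it the shares do not measure how often the real test would recover such changes. A count of 0 members past this test therefore does not show that smaller changes were absent. Tables were made with Python 3.11.15, pandas 2.3.3 and numpy 2.4.6. The 64 control probe sets were left out, and 10 that carry several symbols, a member's among them, stood for no member. All 92 symbols matched RefSeq, and 75 had a promoter window. No column of per-sample values was left unused.

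In each comparison the text names members past the threshold, the 2 or 3 of each complex with the smallest p, core subunits and isoform pairs, and a few others chosen after their values were seen. The members and lists were chosen with earlier results of these data known. Same-numbered arrays deviated together from their group means in 10 of 10 pairs of groups (correlation 0.21 to 0.53, across probe sets). Alternatives were other scalings, brighter probe sets, averaging the probe sets of each gene, a mean-variance trend, array weights, fewer groups, the replicate block and leaving out each array. Those on the trend count and the count without overlap were chosen after seeing the data.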

Additional observations from a re-analysis of the deposited data

Results flagged for a closer look

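Among 96 sets of 5 arrays of one replicate number, 5 held an array far from the other 4 by Dixon's criterion, which chance meets in about 1 of 20 sets. On replicate 1 arrays the median deviation of the members was -0.31 for HOXB4const without TMX, against -0.13 to -0.10 for the others. On the same array Uqcrc2 was 10.12, against 10.51 to 10.66, and Cyc1 was 9.68, against 10.05 to 10.17. The complex IV deviation was -0.042 on HOXB4-ER without TMX 1 h replicate 1, against -0.18 to -0.15. Atp5j was 11.29 on HOXB4const without TMX replicate 2, against 11.10 to 11.15 on the other replicate 2 arrays.

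Among 22 values examined (members, complexes and the members' median), 6 members were higher on both HOXB4-ER arrays after 1 h without TMX than the mean of the arrays with TMX, and lower on both HOXB4const arrays than theirs. The members examined were those of each complex and of the assembly factors with the smallest p for the difference between the constructs. That choice favours opposite signs, so these 6 are a description and no support for a difference. Paired by replicate number, Atp5e and Uqcr11 were not higher in every HOXB4-ER pair, and Cox8c was not lower in every HOXB4const pair. The differences between the constructs were 0.52 for Ndufa10 (0.18 against -0.34), 1.23 for Cox8c (0.60 against -0.62), 0.48 for Atp5e (0.14 against -0.35), 0.46 for Sdhb (0.22 against -0.25), 0.68 for Uqcr11 (0.12 against -0.56) and 0.96 for Ndufaf3 (0.25 against -0.71). None passed the limma test of the difference itself, with an adjusted p of 1.00 for each.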

How the results depend on the processing

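Of 286 alternative values, 259 were classed as unchanged: a count of like size, or a median near the value as deposited. Near meant within 0.23, or within 0.09 between replicate numbers, and the sign was not examined. With 1 array left out, the medians of all 6 treatment and construct comparisons ranged from below 0 to above it. The 108 counts of members called in the 6 treatment and construct comparisons were all 0. With arrays centred on their median, the members' median was -0.40 for HOXB4-ER after 1 h, -0.40 for HOXB4const after 1 h, 0.45 for 4 h against 1 h, 0.41 between the constructs and 0.68 between replicate numbers, where quantile normalization gave 0.17. Leaving out 1 array moved the HOXB4const median between -0.33 and 0.10, the difference between constructs between -0.12 and 0.33, and the replicate median between 0.28 and 0.38. Between replicate numbers limma called 1 member with brighter probe sets only and 17 with the trend. The trend count was 22 with brighter probe sets only (21 of them higher), 4 with centring, 6 with quantile normalization, 11 when each gene's probe sets were averaged, 6 with HOXB4-ER arrays only, 1 with HOXB4const arrays only and 7 to 11 with 1 array left out. The 31 members higher without overlap became 18 with centring, 18 with quantile normalization and 31 to 38 with 1 array left out. The cause of these shifts was not tested.

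With the replicate block 0 members were called in each of the 6 comparisons, as without it, and it changed no call. The labels do not say what a replicate number marks, and each comparison holds 2 pairs. Without the block and with 2 arrays a group, the median unadjusted 95% interval of a member reached 1.15 (log2) to either side. A difference had to exceed its interval to pass the adjusted test.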

Other observations

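Mitochondrial ribosomal proteins, which make the translation machinery for the subunits encoded in mitochondrial DNA, were lower in HOXB4const cells after 1 h without TMX in 63 of 76 genes. Their median was -0.21, against 0.09 over all probe sets and -0.04 over those at or above the median level, where all 76 lie. It was -0.52 with arrays centred and -0.14 with quantile normalization. None passed an adjusted p of 0.05 in limma.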
